A study of Mus musculus with 15 samples.

Results

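The 10 adipocyte genes Adipoq, Fabp4, Lep, Plin1, Cidec, Pparg, Lipe, Pck1, Cfd and Retn were followed in 15 subcutaneous tumors of WEHI-164, a transplanted mouse fibrosarcoma line. They are 10 of the 32543 genes in the deposited table. The genes were picked from these measured values, because they were high in replicate 1 of day 3 and low on day 7. Those 4 tumors are therefore described and not compared in a test for these genes. Tests compared only the 11 tumors that the choice did not use. These were the 3 untreated, 3 day 1 and 3 day 5 tumors and replicates 2 and 3 of day 3. The main fits behind the tests also held tumors used for the choice, so the SE and p-values of these genes rest partly on them. All mice were female wild-type (WT) BALB/c. Their age is not in the labels, and the study's methods give a range in weeks for its mice as a whole, which spans young adulthood. The day 0 tumors were untreated. The treated tumors received intratumoral poly(I:C), a synthetic double-stranded RNA that is sensed as viral RNA, at 1 µg in 25 µL each day, with 6 doses planned, and were harvested on day 1, 3, 5 or 7, with 3 tumors per day. The supplement to the study names a larger amount per day in one legend, so the dose given is the labelled one. None of the 15 tumors received vehicle alone or was left untreated until a later day. Poly(I:C), injection and days of growth therefore cannot be told apart. Every tumor came from the same cell line, a legend of the study states that the experiment was done once, and nothing in the labels ties tumors of different days to each other. The 3 tumors of a day are separate samples, so p-values measure the spread between these samples.

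White adipocytes store triglyceride in a single large lipid droplet and release it as fatty acids by lipolysis. Their program is driven by the nuclear receptor PPARG together with C/EBP factors, and they secrete the adipokines adiponectin, leptin, adipsin and resistin. Fat pads lie directly under the skin of the mouse, next to where subcutaneous tumors grow, and the study's methods state that surrounding tissue was removed before RNA extraction. Several of these genes are not exclusive to fat: Fabp4 is known in capillary endothelium and macrophages, Pparg in macrophages, and Pck1 in liver and kidney. In bulk RNA, fewer cells of a type and less RNA per cell cannot be told apart. On GRCm38 the genes sit on 7 chromosomes, and counts are summed over each gene's transcripts. Adipoq lies at chr16:23146536-23158028, Cfd at chr10:79890853-79892655, Lep at chr6:29060220-29073877 and Retn at chr8:3655770-3660110. Plin1 lies at chr7:79720218-79732903, Cidec at chr6:113424634-113435760, Pck1 at chr2:173153048-173159273 and Fabp4 at chr3:10204088-10208576. Pparg lies at chr6:115360951-115490399 and Lipe at chr7:25379527-25398710.

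Total counts ran from 23.7 to 31.9 mega-counts (counts divided by 1e+06) per tumor, and levels are given as CPM, counts per mega-count, after TMM scaling, edgeR's correction for library composition. A count of 3 in a tumor, the floor used here, corresponds to 0.0972 to 0.125 CPM. Of 6 genes of fibroblasts and mesenchymal tumors, Vim and S100a4 were lowest in replicate 1 of day 3, with Vim at 2763 against 4085 to 5165 CPM, and Col1a1, Col1a2 and Thy1 were highest there. The 6 summed to 17893 CPM in that tumor and to 7145 to 10941 CPM in the others, and the share of tumor cells was not tested. Replicate 1 of day 3 stood apart for a large part of the transcriptome. In that tumor 33.7% of the 15494 genes tested had their highest level of all 15 tumors and 36.6% their lowest.

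The adipocyte genes were a minor part of the RNA. Per kilobase of the longest annotated coding transcript, the untreated tumors held 22.5 ± 8.92 CPM per kilobase of Fabp4 (SD, n = 3), 4.02 ± 1.62 of Cfd, 2.93 ± 0.553 of Lipe and 0.855 ± 0.377 of Pparg. Cidec lay at 0.781 ± 0.136, Adipoq at 0.565 ± 0.196 and Plin1 at 0.37 ± 0.0892 CPM per kilobase. Pck1 at 0.169 ± 0.0753, Retn at 0.137 ± 0.0610 and Lep at 0.0709 ± 0.0109 closed the order. Cfd and Lipe overlapped within their SD, as did Pparg with Cidec, Cidec with Adipoq, Adipoq with Plin1, Pck1 with Retn and Retn with Lep, whereas Fabp4 lay above all others. In replicate 1 of day 3, Fabp4 at 212 and Cfd at 37.7 CPM per kilobase led again, followed by Pparg at 14, Adipoq at 11.6 and Lipe at 11.

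**Figure D1:**
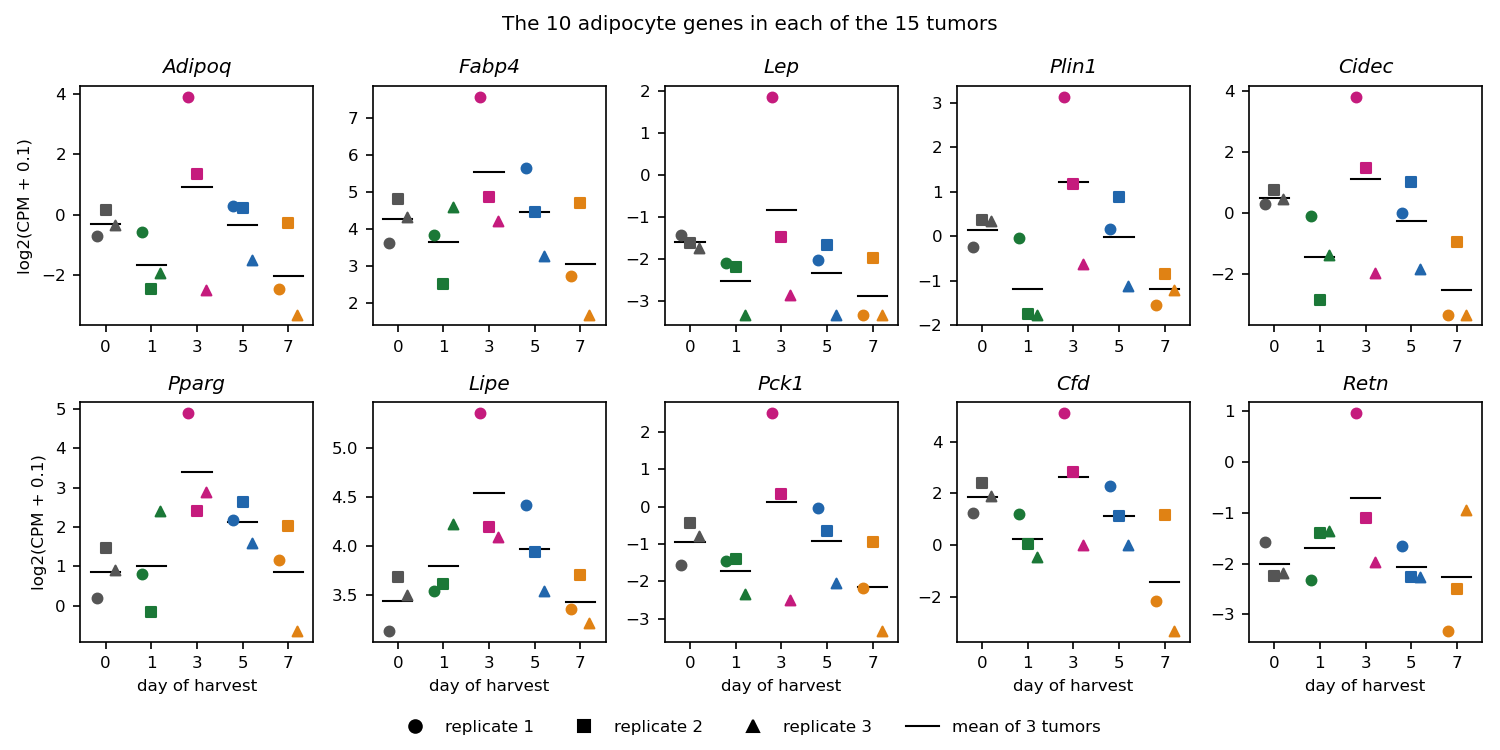
Level of each adipocyte gene, as log2(CPM + 0.1), in the 15 tumors by day of harvest. Symbols mark the replicate and horizontal lines the mean of 3 tumors; replicate 1 of day 3 is the highest tumor in all 10 panels, and replicates 1 and 3 of day 7 are among the 4 lowest tumors except for Pparg in replicate 1 and Retn in replicate 3.

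Adipoq encodes adiponectin, the adipokine most restricted to fat cells. Its counts were 15, 27 and 17 in the untreated tumors, 17, 2 and 5 on day 1, 372, 66 and 2 on day 3, 31, 30 and 7 on day 5, and 2, 19 and 0 on day 7. On the CPM scale this was 0.506, 1.01 and 0.681 on day 0, 0.568, 0.0798 and 0.162 on day 1, and 15, 2.43 and 0.0778 on day 3. On day 5 it was 1.13, 1.07 and 0.251, and on day 7 it was 0.0814, 0.723 and 0 CPM. In 4 tumors there were 3 or fewer Adipoq counts: replicate 2 of day 1, replicate 3 of day 3 and replicates 1 and 3 of day 7. A near absence of Adipoq was thus seen on 3 of the 4 treated days, whereas replicate 2 of day 7 lay inside the untreated range.

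Cfd, which encodes the complement protease adipsin, had the widest spread of the 10 genes over 15 tumors, with an SD of 2.13 on the log2 CPM scale. These include the tumors that chose the genes. Over the 11 tumors not used for the choice the SD of Cfd was 1.15, below 1.49 for Cidec and 1.31 for Adipoq. Cfd was at 2.26, 5.25 and 3.60 CPM in the untreated tumors and at 2.21, 0.917 and 0.616 CPM on day 1. On day 3 it was at 34.8, 6.99 and 0.895 CPM and on day 5 at 4.80, 2.10 and 0.898 CPM. The day 7 tumors held 3, 56 and 0 Cfd counts. The day 1 tumors all lay below the untreated tumors, and those of day 5 overlapped with them.

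The remaining adipokines were close to the limit of detection. Lep, which encodes leptin, had 8, 6 and 5 counts in the untreated tumors and 87 in replicate 1 of day 3, and no other tumor held more than 8. It exceeded the filter on low counts in 1 tumor and was not tested. Retn, which encodes resistin, had 46 counts in replicate 1 of day 3 and 0 to 10 in the other 14 tumors. Retn passed the filter only through replicates 1 and 2 of day 3 and replicate 3 of day 7 and the day 7 tumors held 0, 2 and 10 counts. The untreated tumors held 7, 3 and 3, so that Retn was low on day 7 in 2 of 3 tumors.

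The lipid droplet coat and fusion genes moved like Adipoq. Plin1 encodes perilipin 1, which guards the droplet surface, and Cidec encodes a protein that lets droplets fuse. Cidec lay at 1.15, 1.60 and 1.28 CPM untreated, at 0.835, 0.0399 and 0.292 CPM on day 1, at 14, 2.68 and 0.156 CPM on day 3 and at 0.915, 1.92 and 0.180 CPM on day 5. Its day 7 tumors had 0, 11 and 0 counts. Plin1 lay at 0.742, 1.19 and 1.16 CPM untreated, at 0.869, 0.199 and 0.194 CPM on day 1, at 8.70, 2.17 and 0.545 CPM on day 3, at 1.02, 1.74 and 0.359 CPM on day 5 and at 0.244, 0.456 and 0.334 CPM on day 7. The 7 lowest tumors were the same for both genes: replicates 2 and 3 of day 1, replicate 3 of day 3, replicate 3 of day 5 and the 3 day 7 tumors. Pck1, which supplies glycerol 3-phosphate for fat storage in adipocytes, was at 7, 17 and 12 counts untreated, 139, 32 and 2 on day 3 and 3, 11 and 0 on day 7.

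Fabp4, Pparg and Lipe behaved differently. Fabp4, the fatty acid binding protein of fat cells, lay at 12.2, 28.2 and 20.1 CPM untreated and at 14.3, 5.66 and 24.1 CPM on day 1. It lay at 190, 28.9 and 18.6 CPM on day 3, at 50.4, 22 and 9.52 CPM on day 5 and at 6.59, 26.2 and 3.14 CPM on day 7. Each treated day overlapped with the untreated tumors. Replicate 3 of day 1 and replicate 3 of day 3, with 5 and 2 Adipoq counts, held 744 and 479 Fabp4 counts, within the untreated range of 363 to 758.

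Pparg, the receptor that drives the adipocyte program, lay at 1.05, 2.64 and 1.76 CPM untreated, at 1.64, 0.798 and 5.15 CPM on day 1 and at 29.7, 5.18 and 7.28 CPM on day 3. It lay at 4.43, 6.08 and 2.91 CPM on day 5 and at 2.12, 3.99 and 0.543 CPM on day 7, where replicate 1 was inside the untreated range. All day 3 and day 5 tumors were above all untreated tumors, and replicate 3 of day 3, nearly without Adipoq, had the second highest Pparg level of the 15. Lipe, which encodes hormone-sensitive lipase, varied least, with an SD of 0.57 on the log2 CPM scale over 15 tumors. It lay at 8.70 to 12.8 CPM untreated, 11.6 to 18.7 on day 1, 16.9 to 41.0 on day 3, 11.5 to 21.3 on day 5 and 9.20 to 12.9 CPM on day 7. Pparg overlaps the antisense gene Gm44079 and Lipe the antisense gene 4732471J01Rik, and reads of each pair cannot be told apart where strand was not used in counting.

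Replicate 1 of day 3 exceeded the median of the other 14 tumors by 27.9-fold for Adipoq, 25.0-fold for Lep, 22.3-fold for Cidec, 20.5-fold for Pck1 and 16.4-fold for Cfd. The excess was 13.5-fold for Plin1, 13.4-fold for Retn, 10.7-fold for Pparg, 9.80-fold for Fabp4 and 3.29-fold for Lipe. These values chose the genes and are a description.

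The proportions between the genes were compared as counts per Adipoq count, in the 11 tumors with more than 3 Adipoq counts. Over these tumors Pck1 ran from 0.374 to 0.774 per Adipoq count, Cfd from 1.97 to 5.29, Plin1 from 0.581 to 1.71 and Cidec from 0.579 to 2.27. The highest tumor was 2.07 to 3.92 times the lowest. Fabp4 ran from 11.9 to 149 per Adipoq count, Pparg from 1.98 to 31.8 and Lipe from 2.74 to 115, which was 12.5, 16.1 and 42.1 times. All 3 of these maxima came from replicate 3 of day 1, which held 5 Adipoq counts, and the 11 include replicate 1 of day 3 and replicate 2 of day 7, which the choice of the genes used. In the 8 tumors without these 3, a set formed after the values were seen, Adipoq ran from 7 to 66 counts. There the highest ratio was 1.66 times the lowest for Pck1, 1.91 for Plin1, 2.69 for Cfd and 3.17 for Cidec, against 3.73 for Fabp4, 5.60 for Pparg and 6.11 for Lipe. The spread of Fabp4 was thus close to that of Cidec once replicate 3 of day 1 was left out. In the untreated tumors these ratios were tight, at 24.2, 28.1 and 29.5 for Fabp4 and 2.07, 2.63 and 2.59 for Pparg. On day 5, with 31, 30 and 7 Adipoq counts, the Pparg ratio was 3.90, 5.70 and 11.6, above that of each untreated tumor.

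**Figure D2:**
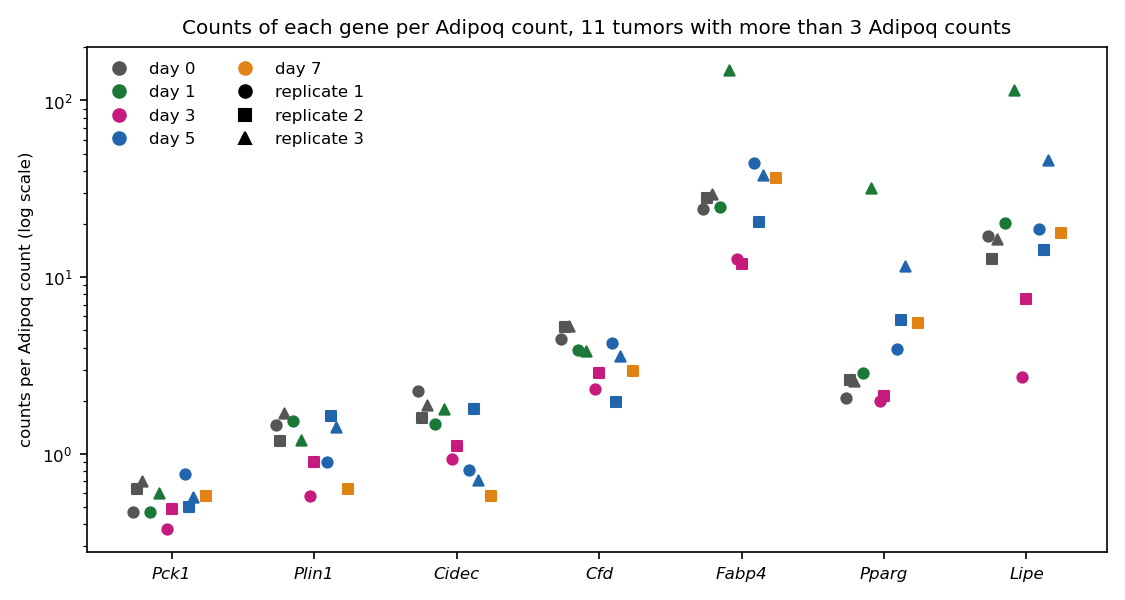
Counts of 7 genes per Adipoq count on a log scale, in the 11 tumors with more than 3 Adipoq counts; colors mark the day and symbols the replicate. Pck1, Plin1, Cidec and Cfd spread over 2.07 to 3.92 times and Fabp4, Pparg and Lipe over 12.5 to 42.1 times, with replicate 3 of day 1 (5 Adipoq counts) at the top; without it and the 2 tumors used for the choice, Fabp4 spreads over 3.73 times.

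In the 11 tumors not used for the choice, Pparg and Lipe stood apart from Adipoq and Fabp4 lay between. Each gene was correlated, on the log2 CPM scale, with the mean of the other adipocyte genes tested. Pearson's r was 0.92 for Adipoq, 0.87 for Plin1, 0.85 for Cidec and Cfd, 0.81 for Pck1 and 0.76 for Fabp4, against 0.35 for Lipe, 0.28 for Pparg and -0.01 for Retn. Between pairs of Adipoq, Plin1, Cidec, Pck1 and Cfd, r ran from 0.74 to 0.94. Between these 5 and Pparg or Lipe it ran from 0.03 to 0.28, and between these 5 and Fabp4 from 0.53 to 0.64. Fabp4 had r = 0.67 with Pparg and 0.68 with Lipe, and Pparg had 0.80 with Lipe. The points are 11 whole-tumor libraries that share depth and composition, and the values are a description.

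Other cell types were then set beside the genes in the same 11 tumors. Pparg had r = 0.90 and Lipe r = 0.85 with the mean of 8 macrophage genes (Adgre1, Csf1r, Cd68, Mrc1, Fcgr1, Mertk, C1qa and C1qb), whereas Adipoq had 0.08, Cidec 0.06, Pck1 0.06, Plin1 0.15 and Cfd -0.06. Fabp4 had its highest r, 0.89, with 7 endothelial genes (Pecam1, Cdh5, Kdr, Emcn, Tek, Tie1 and Cldn5). Lipe had r = 0.93, Fabp4 r = 0.81 and Pparg r = 0.76 with the mean of 10 adipose progenitor and stromal genes. These were Pdgfra, Pdgfrb, Dpp4, Pi16, Cd34, Ly6a, Zfp423, Cebpb, Cebpd and Ebf1. They did not run alike, with r to the adipocyte mean from -0.55 for Cd34 to 0.67 for Zfp423, and Ly6a is also interferon-induced. The summed macrophage level was 1381, 1433 and 1425 CPM in the untreated tumors, 1058, 1293 and 2156 on day 1, 5417, 2173 and 2488 on day 3, 2060, 2400 and 1462 on day 5 and 1408, 1907 and 892 CPM on day 7. Replicate 3 of day 1 and replicate 3 of day 3, with high Pparg and little Adipoq, were thus also high in the macrophage sum. Mrc1, 1 of the 8 genes, went the other way. It had 3880 and 4287 counts in these 2 tumors, against 13611, 5310 and 6121 in the untreated tumors. All 8 macrophage and all 7 endothelial genes were well above the floor in every tumor. The part of these cells in the levels of Pparg, Lipe and Fabp4 was not tested.

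**Figure D3:**
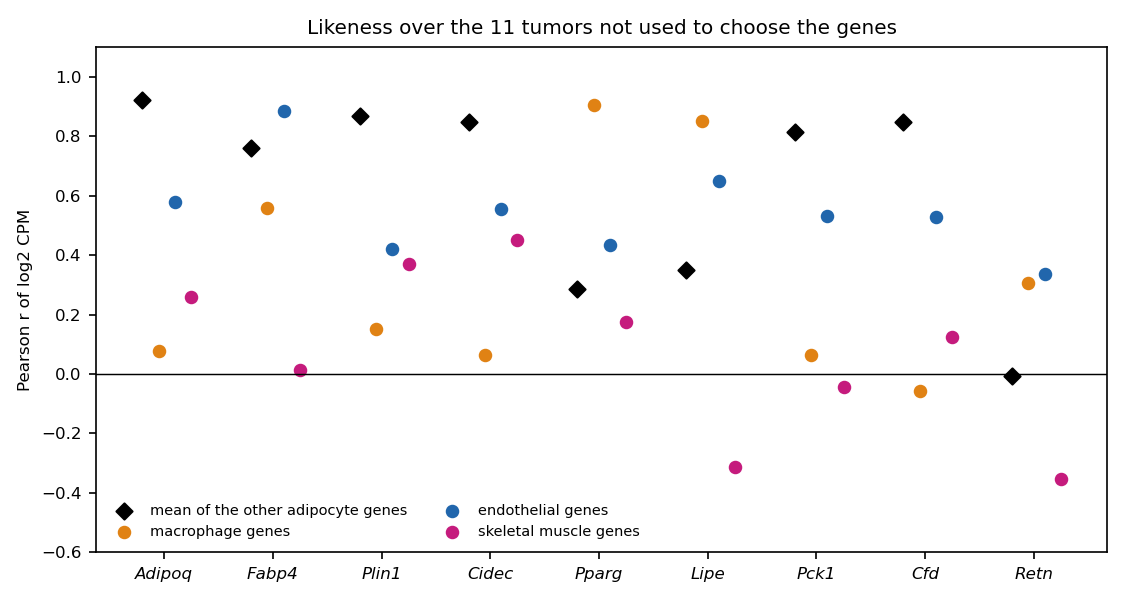
Pearson's r of log2 CPM over the 11 tumors not used to choose the genes, for each adipocyte gene tested, with the mean of the other adipocyte genes (diamonds) and with the mean of macrophage, endothelial and skeletal muscle genes (circles). Pparg and Lipe lie at 0.90 and 0.85 with macrophage genes, and Adipoq, Plin1, Cidec, Pck1 and Cfd at 0.81 or above with the other adipocyte genes.

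Skeletal muscle lies beneath the subcutaneous fat, and 12 muscle genes moved with the adipocyte genes in some tumors only. All 12, among them Acta1, Ttn and Myh1, were highest in replicate 1 of day 3, as were 33.7% of all genes tested. The 12 summed to 3771 CPM there against 6.08 to 220 CPM in the other 14 tumors. Replicates 1 and 3 of day 7 held 9.48 and 6.31 CPM of muscle genes, with 2 and 0 Adipoq counts. Replicate 2 of day 7 held 192 CPM, with 19 Adipoq counts. Fabp4 was still present in replicate 1 of day 7, at 162 counts against 688 in replicate 2. The choice of the genes used replicate 1 of day 3 and the day 7 tumors, so their joint course is a description. In replicate 1 of day 5 the 2 groups of genes went apart. Its muscle genes summed to 6.08 CPM, with Acta1 at 0.0732 CPM, while Adipoq stood at 31 counts and Fabp4 at 50.4 CPM. In the reverse direction, replicate 3 of day 1, replicate 3 of day 3 and replicate 3 of day 5 held 107, 77.2 and 120 CPM of muscle genes with 5, 2 and 7 Adipoq counts. Over the 11 tumors Pearson's r with muscle genes was 0.26 for Adipoq, 0.45 for Cidec, 0.37 for Plin1, 0.12 for Cfd, -0.04 for Pck1 and -0.31 for Lipe. Spearman's rho was higher for the first 5, at 0.50, 0.74, 0.67, 0.50 and 0.40, and was -0.28 for Lipe.

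**Figure D4:**
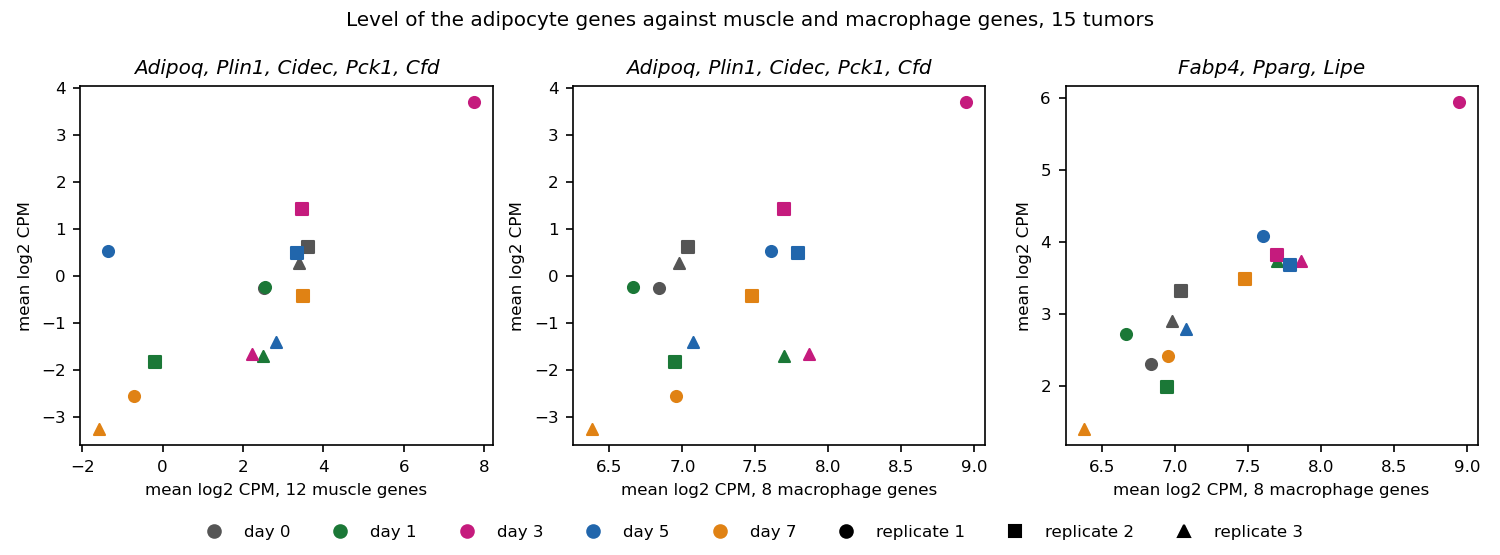
Mean log2 CPM of Adipoq, Plin1, Cidec, Pck1 and Cfd against muscle genes (left) and macrophage genes (middle), and of Fabp4, Pparg and Lipe against macrophage genes (right), in 15 tumors. Replicate 1 of day 3 is at the upper right of each panel; in the left panel replicate 1 of day 5 combines a muscle level of -1.36 with an adipocyte level of 0.52.

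Markers of other tissues near the skin differed in their course. All 7 endothelial genes were highest in replicate 1 of day 3, at a summed 553 CPM against 85.6 to 304 CPM in the others, as were 6 of 8 macrophage and 5 of 7 B cell genes. Of all genes tested, 33.7% were highest in that tumor. None of 9 keratinocyte genes was, and Krt14 and Krt5, the keratins of basal epidermis, exceeded 6 counts only in replicate 3 of day 3, a tumor with 2 Adipoq counts, where they lay at 18.3 and 4.12 CPM. Of 9 mammary epithelial genes, Csn2, Wap and Cldn3 had at most 3 counts in every tumor. In replicate 1 of day 3, 4 of the 9 were lowest, among them Krt8 and Krt18, beside 36.6% of all genes tested. Epcam was highest there, with 15 counts against 0 to 13 elsewhere. Of 5 erythroid genes none was highest in replicate 1 of day 3. The part of adjoining tissue in the adipocyte levels was not tested.

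Against the untreated tumors, no adipocyte gene passed an adjusted p under 0.05 by edgeR's quasi-likelihood test on any of the 3 tested comparisons, and 9 of the 10 genes could be tested. On day 1, Cidec had a log2 fold change of -1.76 ± 1.37 (SE), Cfd -1.56 ± 1.27, Adipoq -1.40 ± 1.39, Plin1 -1.27 ± 0.89 and Pck1 -1.06 ± 1.22. Fabp4 was at -0.45 ± 0.95, and Lipe at 0.38 ± 0.34, Pparg at 0.48 ± 0.83 and Retn at 0.49 ± 1.05 had the opposite sign. All adjusted p-values were 1.00 by edgeR, with 0 of 15494 genes called (0%). None of the 9 had an unadjusted p under 0.05, as did 3.16% of all genes. Cidec and Cfd, 2 of 9, were lower in all 3 day 1 tumors than in any untreated tumor, which was so for 6.61% of all genes. The median of the 9 was -1.06, beside 0.00 over all genes. Retn is among the 9 although only 1 of the 11 tumors that the choice did not use exceeded the filter for it, and without Retn the median was -1.17. The Pparg value rested on replicate 3 of day 1: without it the log2 fold change was -0.56.

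Replicates 2 and 3 of day 3 were set against the untreated tumors in a fit without replicate 1. Pparg had a log2 fold change of 1.78 ± 0.77 and Lipe of 0.69 ± 0.28, with edgeR adjusted p = 0.381 and adjusted p = 0.368. Both were above all untreated tumors in both day 3 tumors, and these 2 of 9 compare with 23.2% of all genes. They were also the only 2 of the 9 with an unadjusted p under 0.05, as were 13.1% of all genes. By edgeR 0 of 15494 genes were called (0%). When only the 5 tumors of these days were fitted, 1646 genes passed (10.6%) and Pparg and Lipe were among them, with edgeR adjusted p = 0.0230 and adjusted p = 0.0388. Adipoq at 0.79 ± 1.20, Retn at 0.72 ± 0.94, Pck1 at 0.50 ± 1.05, Plin1 at 0.41 ± 0.74, Fabp4 at 0.24 ± 0.85, Cfd at 0.10 ± 1.20 and Cidec at 0.09 ± 1.24 had errors larger than their values. The median of the 9 was 0.50, or 0.45 without Retn, beside 0.00 over all genes. Without replicate 2 the median of the 9 was -0.91, since Adipoq held 66 counts in replicate 2 and 2 in replicate 3.

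On day 5, Pparg had a log2 fold change of 1.30 ± 0.83 and Lipe of 0.56 ± 0.34, both with edgeR adjusted p = 0.859. The other 7 lay between -0.51 ± 1.23 for Cfd and 0.44 ± 0.94 for Fabp4, with Adipoq at 0.16 ± 1.31, Plin1 at 0.02 ± 0.85 and Cidec at -0.41 ± 1.30. No gene of 15494 was called (0%). None of the 9 had an unadjusted p under 0.05, which 4.8% of all genes had. Pparg, 1 of 9, was above all untreated tumors in all 3 day 5 tumors, beside 6.89% of all genes. The SE of the adipocyte genes, with medians of 1.05, 0.94 and 1.09 in the 3 comparisons, exceeded the median SE of all genes, at 0.21, 0.17 and 0.21. Tumors used for the choice entered each of these fits, and the choice favors genes that vary between tumors. The larger SE is therefore a description.

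**Figure D5:**
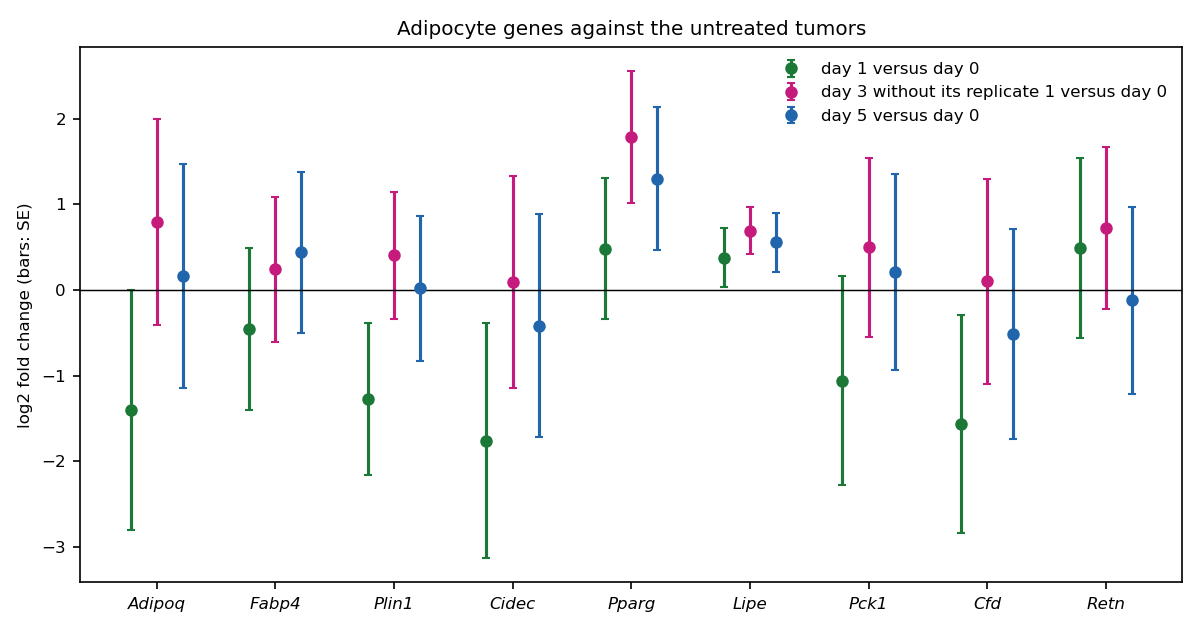
Log2 fold change against the untreated tumors of the 9 adipocyte genes tested, with bars of 1 SE, on day 1 (green), in replicates 2 and 3 of day 3 (pink) and on day 5 (blue). Pparg and Lipe lie above 0 in all 3 comparisons; Adipoq, Cidec, Plin1, Pck1 and Cfd lie below 0 on day 1 with bars longer than 0.8.

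The comparisons that the choice of genes used are given without a test. Over all 3 day 3 tumors the log2 fold changes ran from 1.22 ± 0.34 for Lipe to 2.99 ± 1.34 for Adipoq, with a median of 2.06 beside -0.02 over all genes. Over the 3 day 7 tumors they ran from -3.19 ± 1.54 for Cidec to 0.29 ± 0.83 for Pparg, with a median of -1.27 beside -0.02. Cfd was at -2.28 ± 1.32, Plin1 at -1.56 ± 0.91 and Adipoq at -1.40 ± 1.41, whereas Lipe was at -0.02 ± 0.34 and Retn at 0.04 ± 1.11. The Retn value joins tumors that went apart, with 0, 2 and 10 counts on day 7 against 7, 3 and 3 untreated. In these comparisons too, 0 of 15494 genes were called (0%). All 5 comparisons share the untreated tumors.

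Of 21 further genes of white adipocytes, 17 were tested and 0 passed edgeR's adjusted threshold in any of the 5 comparisons. They were listed for their known role, with earlier results of these data known. The choice of the 10 genes used replicate 1 of day 3 and the day 7 tumors. Because the 21 belong to the same cell type, their values that rest on those tumors are a description. At an unadjusted p under 0.05 by edgeR there were 9 of 17 for day 3 with all its tumors, beside 30% of all genes. There was 1 for replicates 2 and 3 of day 3 (13.1% of all genes), 1 for day 5 (4.8%) and 0 for day 1 (3.16%) and for day 7 (2.07%). DESeq2 called 6 in the day 3 comparison, beside 2003 of all genes (13.5%), and 0 in the others, where it called 0.259% of all genes for day 1, 0.555% for replicates 2 and 3 of day 3, 0.0742% for day 5 and 0.0324% for day 7. Of the 21, 20 were highest in replicate 1 of day 3, beside 33.7% of all genes tested. The exception was Angptl4, an inhibitor of lipoprotein lipase, at 82.9 CPM there and 51.1 to 112 CPM elsewhere. Car3, a carbonic anhydrase abundant in fat and in slow muscle, was closest of the 21 to the 10 genes in course. It ran from 0.209 to 120 CPM and had r = 0.83 with their mean over the 11 tumors not used for the choice. In the tumors with more than 3 Adipoq counts, a different set of 11, it stayed within 5.23 to 20.4 counts per Adipoq count.

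Several of these followed Adipoq less. Cd36, a fatty acid transporter also found on macrophages, lay at 11.1, 25.2 and 17.5 CPM untreated and at 53.2 and 53.0 CPM in replicates 2 and 3 of day 3, with a log2 fold change of 1.57 ± 0.67 and edgeR adjusted p = 0.379. Cd36 had r = 0.95 and Lpl, lipoprotein lipase, r = 0.86 with macrophage genes over the 11 tumors, next to 0.39 and 0.69 with the adipocyte mean. With the adipose progenitor and stromal genes they had r = 0.86 and 0.84, and with endothelial genes 0.52 and 0.66. Gpd1, Trarg1 and Sncg had r = 0.76, 0.70 and 0.73 with the adipocyte mean, Thrsp, Slc2a4, Aqp7 and Adrb3 0.65, 0.60, 0.60 and 0.68, and Cebpa, Pnpla2, Pde3b, Rbp4, Plin4 and Acvr1c between -0.17 and 0.41. Adig, Lgals12, Mrap and Slc7a10 did not pass the filter and had 24, 28, 43 and 42 counts in replicate 1 of day 3. Cebpa, the C/EBP factor of fat cells, was present in every tumor at 15.2 to 71.1 CPM.

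Genes of lipid synthesis and lipolysis did not move as one group. Of 14 lipid synthesis genes, 7 were lowest and 4 highest in replicate 1 of day 3, beside 36.6% and 33.7% of all genes. Fasn, fatty acid synthase, was at 166 CPM there and at 472 to 913 CPM in the other tumors, Acly, ATP citrate lyase, at 175 against 210 to 319 CPM, and Scd1, stearoyl-CoA desaturase, at 190 against 183 to 358 CPM. Of 7 lipolysis regulators 4 were highest and 1 lowest in that tumor, and Prkar2b, Prkaca and Abhd5 were the most abundant. Prkar2b was at 33.9 CPM in that tumor and at 88.9 to 109 CPM elsewhere, whereas Prkaca and Abhd5 lay within 75.1 to 84.7 and 28.3 to 34.2 CPM in all 15. Mgll, monoglyceride lipase, and G0s2, an inhibitor of lipolysis, were highest there at 37.8 and 3.54 CPM.

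Of 12 close relatives of the 10 genes, 5 were highest in replicate 1 of day 3 and 2 lowest, beside 33.7% and 36.6% of all genes tested. Plin2, which coats droplets in most cells, lay at 314 to 652 CPM over the 15 tumors, highest in replicate 3 of day 1. Fabp5 was highest in replicate 1 of day 3 at 200 CPM, against 87.0 to 152 CPM elsewhere, and had r = 0.75 with the adipocyte mean over 15 tumors and 0.49 over the 11. Pck2, the mitochondrial isoform of Pck1, lay at 52.6 to 145 CPM, lowest in replicate 1 of day 3. Retnla, a resistin relative of alternatively activated macrophages, was at 35.6 CPM in replicate 1 of day 3, at 9.15 CPM in replicate 1 of day 5 and at 0 to 2.02 CPM elsewhere. Because Fabp4 and Fabp5, or Retn and Retnla, are similar in sequence, the share of counts each received depends on how the authors' pseudoalignment divided them. Of the receptors and partners, Adipor1, Adipor2 and Insr ran from 140 to 175, 79.2 to 113 and 61.3 to 103 CPM, and Rxra, the partner of PPARG, from 66.3 to 98.3 CPM.

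Of 10 thermogenic genes, 8 were highest in replicate 1 of day 3 and 2 lowest, beside 33.7% and 36.6% of all genes tested. Only 6 of the 10 passed the filter on low counts. The 8 include Ucp1, with 2 counts there and also in replicates 1 and 3 of day 1. The 2 include Elovl3, with 1 count there. Cox8b, a subunit of cytochrome c oxidase found in brown fat and in muscle, had 131 counts there and 0 to 8 elsewhere. Ucp1, which defines brown and beige fat, had at most 2 counts in any tumor, and Cidea, a further brown fat gene, had 5 counts in replicate 1 of day 3 and 0 or 1 elsewhere. Ppargc1a was lowest in replicate 1 of day 3 at 2.13 CPM, and Dio2 and Ebf2 were highest there at 5.52 and 4.03 CPM. Of 11 adipose progenitor and stromal genes, 8 were highest in that tumor and 2 lowest, beside 33.7% and 36.6% of all genes tested. Pdgfra was at 303 CPM there against 31.4 to 78.3 CPM and Pi16 at 180 against 3.93 to 41.4 CPM. The most abundant of the 11, Cd34, was lowest there at 346 CPM. Ly6a, an interferon-induced gene also used as a progenitor marker, peaked at 1335 CPM in replicate 3 of day 1.

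All tested genes other than the 10 were ranked by their Pearson's r with the mean of the 9 adipocyte genes. Over all 15 tumors the 10 highest, at r = 0.94 to 0.96, were Scn4b, Adcy2, Apoc1, Cyp2f2, Bcam, Slc36a2, Dmd, Car3, Pla2g2d and Igfbp5. Over the 11 tumors they were Nutm1, Dph1, Ret, Slc36a2, Apoc1, Adcy2, Zim1, Tek, G430095P16Rik and Scn4b, at r = 0.86 to 0.89, and 4 were shared. Car3 and Tek also belong to the lists above. Of the second list, 8 averaged under 1 CPM. Dph1, at 20.1 CPM, had r = -0.51 over 15 tumors.

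Promoter sequences from RefSeq (GRCm38.p6) were found for 9 of the 10 genes, in 13 windows, with Fabp4 the gene without one. Adipoq, to which the ratios were taken, is shown beside Lep and Pparg, which carry a match to the motif TTNNGCAA of C/EBP factors. Each is the stretch just before the start of transcription, 5′ to 3′ on the plus strand, at chr16:23146286-23146535, chr6:29059971-29060219 and chr6:115421816-115422065, and capitals mark the motif on either strand. The Pparg window precedes an internal start of the gene and lies in an intron of its longer transcripts.
Adipoq: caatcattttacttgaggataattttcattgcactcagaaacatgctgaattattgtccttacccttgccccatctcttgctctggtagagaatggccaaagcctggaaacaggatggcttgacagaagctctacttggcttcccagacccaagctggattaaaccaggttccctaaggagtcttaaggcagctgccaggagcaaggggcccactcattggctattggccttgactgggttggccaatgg
Lep: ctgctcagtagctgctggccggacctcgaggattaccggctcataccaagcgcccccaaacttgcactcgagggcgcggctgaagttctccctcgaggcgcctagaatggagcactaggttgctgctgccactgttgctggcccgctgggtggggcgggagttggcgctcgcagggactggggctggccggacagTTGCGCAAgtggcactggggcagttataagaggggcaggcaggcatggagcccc
Pparg: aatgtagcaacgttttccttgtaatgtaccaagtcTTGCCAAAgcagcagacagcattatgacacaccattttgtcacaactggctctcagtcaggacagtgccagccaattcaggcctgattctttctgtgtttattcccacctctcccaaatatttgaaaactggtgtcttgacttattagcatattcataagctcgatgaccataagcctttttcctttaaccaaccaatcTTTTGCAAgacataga
The motif began 55 bases before the start of Lep and 215 and 16 bases before that start of Pparg. It was present in 4 of the 13 windows within 250 bases, those of Lep, Plin1, Cidec and Pparg, and in 9.56% of 32851 mouse windows of the same length. The nuclear receptor half-site AGGTCA was present in 2 of 13 windows, both of Pparg, and in 14% of all windows. A direct repeat of this half-site with 1 base between, the form bound by PPARG with RXRA, was in none of the 13 and in 0.0335% of all. The motif was present in genes that followed Adipoq (Plin1 and Cidec) and in Pparg, which did not, and these letters say nothing of binding.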

How the data were processed

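RNA of 15 tumors was sequenced as poly(A) RNA in single-end reads. The authors estimated transcript abundance with kallisto and summarised it to genes with tximport on GRCm38 (mm10); the transcript set, strandedness and rounding are not given in the sources used here. The deposited values are whole-number counts per gene, 1 column per tumor, with totals of 23.7 to 31.9 mega-counts. Of 32544 entries, 1 was named by a date (at most 0.0268% of a tumor) and was left out. Groups were taken from the labelled time point.

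The members and all gene lists were chosen with earlier results of these data known. Genes over the study's CPM minimum, 9 to 12 counts here, in at least 3 tumors were kept (15494). All 15 tumors were fitted by day with edgeR 4.0.16 (TMM, quasi-likelihood test) in R 4.3.3, with Benjamini-Hochberg adjustment over all genes and a threshold of 0.05; the comparison without replicate 1 of day 3 used the other 14. Log2 CPM used a prior count of 2. Alternatives were DESeq2 1.42.0, its size factors, no filter, only the groups compared, no day 7 tumors, a replicate block, each tumor left out, a prior count of 0.5 and Spearman's rho. Named genes were the 10, every further white adipocyte gene, the 3 most abundant of each other list, and the 10 closest in course over 15 and over 11 tumors; others named were chosen after their values were seen. A further marker list is not reported here. The ratios in 8 tumors and the medians without Retn were added after the data were seen. Exon models and lengths came from GENCODE M21 (GRCm38), and coordinates are on that build. Counting error only is covered by the floor of 3 counts. The steps were tested on simulated data for day 5 against day 0 over the same 15494 genes.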

Additional observations from a re-analysis of the deposited data

How the results depend on the processing

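The tests called 0 of 15494 genes in all 5 comparisons with day 0, and these counts depended on the tool and on the tumors fitted. DESeq2 called 2003 genes for all 3 day 3 tumors, 6 of them further white adipocyte genes. These 6 rest partly on replicate 1 of day 3, which the choice of the 10 genes used. DESeq2 called 86 genes for replicates 2 and 3 of day 3, 40 for day 1, 11 for day 5 and 5 for day 7. With only the groups compared, 1646 genes were called in replicates 2 and 3 of day 3, among them 2 of the 10 adipocyte genes (Pparg and Lipe) and 3 further white adipocyte genes (Cd36, Pnpla2 and Angptl4), and 1 gene each for day 5 and day 7. Leaving out each tumor in turn gave 0 to 71 genes in replicates 2 and 3 of day 3 and 0 to 61 on day 3, both highest without replicate 3 of day 1, and 2 on day 3 without its replicate 3. The cause was not tested. No other alternative called an adipocyte gene of the 10 in the 3 tested comparisons, and DESeq2's size factors, no filter and no day 7 tumors called 0 genes in every comparison.

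The replicate numbers gave no sign of pairing the tumors. Same-numbered tumors deviated from their day means with a mean r of -0.06, and 9 of 30 such pairs were over 0.1. Pairs with different numbers had a mean r of 0.03. Such means cannot exclude a pairing. The replicate block called 0 genes, and under it the log2 fold change turned to -0.68 for Cidec, -0.048 for Pck1 and -0.48 for Cfd in replicates 2 and 3 of day 3, and to -0.34 for Adipoq, -0.26 for Plin1 and -0.34 for Pck1 on day 5.

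With each tumor left out, 8 of 9 members kept their sign on day 1, and the log2 fold change of Pparg ran from -0.56 to 0.90. In replicates 2 and 3 of day 3 it ran from -3.16 to 1.74 for Adipoq, -0.12 to 0.56 for Fabp4, -0.91 to 1.08 for Plin1, -3.07 to 1.01 for Cidec, -2.46 to 1.39 for Pck1, -2.04 to 0.92 for Cfd and -0.022 to 1.21 for Retn, with each low end at the fit without replicate 2. On day 5 it ran from -0.14 to 0.59 for Adipoq, -0.35 to 0.85 for Fabp4, -0.57 to 0.43 for Plin1, -1.29 to 0.080 for Cidec, -0.40 to 0.65 for Pck1 and -0.54 to 0.31 for Retn. Pparg and Lipe kept a positive sign under every alternative in replicates 2 and 3 of day 3 and on day 5. Depth limits the 5 genes with 0 counts in replicate 3 of day 7 (Adipoq, Lep, Cidec, Pck1 and Cfd): a count of 0 allows up to 3 counts.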
